A study of Mus musculus with 47 samples.

Results

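Imprinted genes are described here in C2C12, a mouse skeletal myoblast line, through 10 members of the class: H19, Dlk1, Meg3, Rian, Mirg, Peg3, Mest, Plagl1, Peg10 and Grb10. The members were picked by symbol from the 45706 gene identifiers of the tables, and the transcripts of each gene were summed. Peg10 was picked for its lower level with doxycycline (dox) at 0 h, so its values in that contrast, and in any comparison that uses the 0 h libraries, are a description with no test. Meg3 heads the group by name only: it was at 0 counts in 44 of 47 libraries, and with Dlk1, Rian and Mirg it was never high enough to be tested.

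The study raised the dose of MyoD1, the myogenic transcription factor, with a dox-inducible transgene and followed the transcriptome through differentiation by serum starvation. The iMyoD1 cells carried endogenous MyoD1 plus a dox-inducible Halo-MyoD1 and received 1 µg/mL dox or vehicle. At 0 h they had been kept in growth medium with dox or vehicle for 24 h, and at 24, 48 and 120 h treatment and serum starvation had begun together and lasted equally long. The study saw the Halo-tagged protein in a minority of iMyoD1 nuclei at 24 h with dox. In its other line, with endogenous MyoD1 tagged too, the level in expressing nuclei was near the endogenous one again by 48 h. At 120 h there were whole cultures and, from a 40 µm strainer after mild trypsin, a myoblast-enriched flow-through and a myotube-enriched retained fraction. Lines with inducible Cdh23 (iCdh23) or inducible Mcam (iMcam), both cell adhesion genes, were starved for 48 h with dox or vehicle. Each of the 16 groups had 3 biological replicates except the dox-treated myoblast-enriched fraction, which had 2, replicates 2 and 3. Every group shared the C2C12 background and a PiggyBac-integrated transgene under a TRE3G promoter in drug-selected cells. The study calls the iMyoD1 population polyclonal. No library comes from cells without a transgene, so effects of dox itself and of the transgene cannot be told apart.

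Totals ran from 15066338 to 50950674 estimated counts per library, with a median of 22837926. Myod1 counts did not rise with dox. Means of 3 without and with dox were 178 and 188 CPM (counts scaled to library size) at 0 h, with overlapping libraries, and 388 and 306 CPM at 48 h. In whole cultures at 120 h they were 280 and 92 CPM. Whether the transgene's sequence could be counted as Myod1 is not given in the sources used here, so dox treatment is taken from the labels throughout. Cdh23 was at 389 CPM without and 486 CPM with dox in iCdh23, with overlapping libraries, and Mcam rose from 18.1 to 71.3 CPM in iMcam. Untreated iCdh23 libraries thus already held 348 to 451 CPM of Cdh23, against 5.61 to 8.86 CPM in untreated iMcam. The dox comparison in iCdh23 therefore does not set low against high Cdh23 counts. The 35 libraries of 48 h, 120 h, iCdh23 and iMcam carry a batch label and the 12 libraries of 0 and 24 h carry none, so in any 24 to 48 h comparison time and batch cannot be told apart. The 6 whole cultures at 120 h stood apart in their antisense-type transcripts, 0.0712 to 0.0913% of counts against 0.102 to 0.185% in the other 41 libraries. Replicate 1 of the dox-treated myotube-enriched fraction had 3.64% of its counts on retained-intron transcripts, against at most 2.37% elsewhere. Outside the fractions that share was higher with dox, with no overlap, at 24 h (1.54 to 1.81% against 1.86 to 1.93%) and 48 h (1.68 to 1.74% against 1.94 to 2.17%), and likewise in whole cultures at 120 h, in iCdh23 and in iMcam. Myoblast genes were present throughout (Des, desmin, at 163 CPM or more), while markers of adipocytes, endothelium and osteoblasts did not exceed 0.929 CPM. Of the blood markers Cd68 reached 4.04 CPM with Ptprc and Adgre1 at most at 0.237 CPM, and of the smooth muscle markers Acta2 ran from 45.7 to 3917 CPM with Myh11 at most at 1.37 CPM.

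Imprinted genes are transcribed mainly from the allele of one parent, an asymmetry set by DNA methylation laid down in the germ line at imprinting control regions. Many lie in clusters in which a maternally expressed noncoding RNA sits beside a paternally expressed growth gene, as H19 does beside Igf2 (insulin-like growth factor 2) and Meg3 beside Dlk1. H19 and Igf2 share enhancers and are known for high expression in fetal muscle and during myoblast differentiation. These libraries count RNA from both alleles together, so imprinting itself was not measured.

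Among the members, H19 and Mest are also microRNA hosts. miR-675 lies in an exon of H19 (chr7:142575529-142578143 in mm10/GRCm38, minus strand) and miR-335 in an intron of Mest (chr6:30723547-30748465, plus strand). Their mature sequences are shown because both hosts rose between 24 and 48 h in every iMyoD1 arm. They come from RefSeq on GRCm38.p6, 5′ to 3′, with the seed, bases 2 to 8, in capitals. The polyA libraries do not measure mature microRNAs.

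mmu-miR-675-5p (chr7:142577112-142577133, minus strand): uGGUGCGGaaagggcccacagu
mmu-miR-675-3p (chr7:142577078-142577099, minus strand): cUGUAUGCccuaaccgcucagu
mmu-miR-335-5p (chr6:30741314-30741336, plus strand): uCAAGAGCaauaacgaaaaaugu
mmu-miR-335-3p (chr6:30741354-30741375, plus strand): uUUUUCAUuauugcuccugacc
No seed was shared among the 4.

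Mest has a pair of annotated starts whose transcript models received very different shares of the deposited estimated counts, so the 250 bases before each are shown, from RefSeq on GRCm38.p6, plus strand. Capitals mark CAGCTG, an E-box hexamer that MyoD1 is known to bind and that is its own reverse complement. The upstream start has 1 such match, 135 bases before the start, and the main start has none.

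Mest upstream start (chr6:30733256-30733505): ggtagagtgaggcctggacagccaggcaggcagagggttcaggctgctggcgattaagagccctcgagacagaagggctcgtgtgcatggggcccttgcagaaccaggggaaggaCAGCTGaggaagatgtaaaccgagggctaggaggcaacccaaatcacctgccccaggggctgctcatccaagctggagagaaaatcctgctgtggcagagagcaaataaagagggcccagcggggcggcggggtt
Mest main start (chr6:30737800-30738049): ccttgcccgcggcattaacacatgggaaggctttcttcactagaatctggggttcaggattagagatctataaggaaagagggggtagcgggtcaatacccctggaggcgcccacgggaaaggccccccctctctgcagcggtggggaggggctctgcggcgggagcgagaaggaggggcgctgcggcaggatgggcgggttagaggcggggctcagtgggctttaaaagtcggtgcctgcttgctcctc
In RefSeq windows of 250 bases before to 50 after a start, CAGCTG occurred in 5355 of 32851 windows (16.3%) and in 1 of the 12 windows of the 8 members with an entry.

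The Dlk1-Dio3 locus on chromosome 12 was close to silent in every library. Dlk1 (chr12:109452823-109463336, a transmembrane ligand-like inhibitor of differentiation) had 5 estimated counts over all 47 libraries, and no library held more than 2. Meg3 (chr12:109541001-109571726, a maternally expressed long noncoding RNA) had 11 counts in 3 libraries. Of these, 9 counts (0.443 CPM) lay in 1 library, the untreated whole culture at 120 h, replicate 1.

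Rian (chr12:109603940-109661716, host of small nucleolar RNAs) had 14 counts in 9 libraries, and Mirg (chr12:109729764-109749460, host of microRNAs) had 2 counts in 2 libraries. A floor of 3 counts corresponded to 0.0605 to 0.201 CPM per library, and the Meg3 library was the 1 exceedance among these 4 genes. Rtl1, the retrotransposon-derived gene of the locus, had 1 count in all, and Dio3, the deiodinase gene that ends it, had none. RefSeq places 58 microRNA hairpins between Dlk1 and Dio3, of which 14 lie in Mirg and 3 in Rian. Neither dox, time, line nor fraction brought any of these genes to a level that passed the filter on low counts.

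The 6 members outside that locus were H19, Peg3, Mest, Plagl1 and Peg10, which had counts in all 47 libraries, and Grb10, which had counts in 32 and was above the floor in 22. "Rose" and "fell" mean an adjusted p under 0.05 in edgeR's quasi-likelihood test with Benjamini-Hochberg adjustment over all genes tested. Apart from Peg10, 4 members were tested for dox at 0 h, and 2 rose and 1 fell, where 37.8% of all genes tested passed, 19.1% upward and 18.7% downward. At 24 h 1 rose and 4 fell of 5, against 62.8% of all genes (31.1% up and 31.7% down). A gene was tested if enough libraries held the equivalent of 10 counts in the median library, and Grb10 at 48 h met that through the untreated libraries alone, where it is high. Without it 1 rose and 4 fell of 5 at 48 h, against 56.6% (27.9% up and 28.7% down). In whole cultures at 120 h 4 rose and 1 fell of 6, against 45.2% (21.4% up and 23.7% down). With at most 6 members tested, these shares do not set the members apart from that background.

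The members' median log2 fold change with dox was 0.15 at 0 h, -0.46 at 24 h, -0.8 at 48 h without Grb10 and 0.5 in whole cultures at 120 h, and the median over all genes tested lay between 0 and 0.01 in the same fits. In iCdh23 0 rose and 4 fell of 5, with a median of -1.9, where 63.8% of all genes tested passed (31.3% up and 32.4% down). In iMcam 0 rose and 4 fell of 5, with a median of -1.82, where 49% passed (24.2% up and 24.8% down). Over all genes the medians there were 0 and 0.02. When all 16 groups shared 1 estimate of the spread, the counts of members past the test were 0 at 0 h, 3 at 24 h and 3 at 48 h. The share of all genes past the test in that fit is not given here. The calls for dox that ended there were H19, Peg3 and Mest at 0 h (adjusted p = 0.9, 0.118 and 0.388), H19 and Mest at 24 h (0.558 and 0.308), Peg3, Mest and Grb10 at 48 h (0.0537, 0.164 and 0.285) and Peg3 in whole cultures at 120 h (0.464).

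Changes are given relative to TMM scaling, which sets the median change of all genes near 0. When libraries were instead scaled to their totals, an alternative added after the values were seen, that median with dox was 0.11 at 0 h, 0.26 at 24 h, 0.15 at 48 h, 0.2 in whole cultures at 120 h, 0.33 in iCdh23 and 0.21 in iMcam. Of all genes called, the upward share then went from 50.6 to 73.5% at 0 h, from 49.5 to 75.4% at 24 h, from 49.3 to 64.4% at 48 h, from 47.5 to 67.4% at 120 h, from 49.2 to 68.2% in iCdh23 and from 49.4 to 67.7% in iMcam. Of the members' calls for dox, that of H19 at 24 h was the one lost under this scaling.

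**Figure D1:**
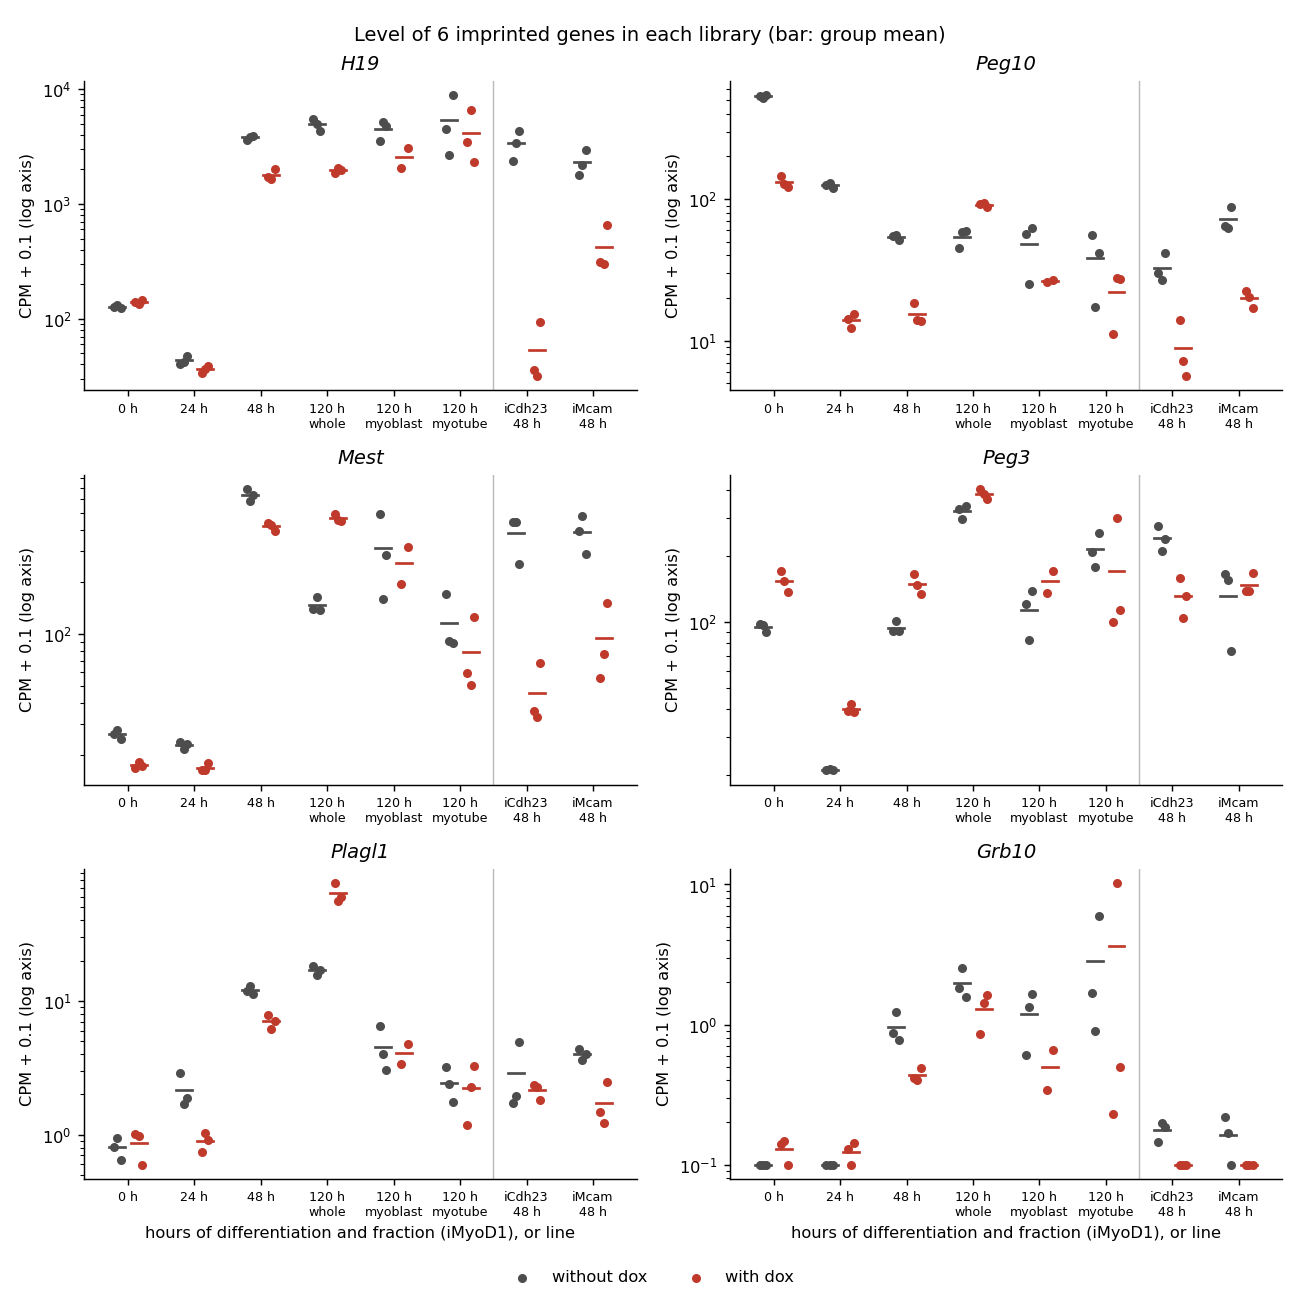
Level of the 6 members with counts outside the Dlk1-Dio3 locus, as CPM + 0.1 on a log10 axis, in each library by setting, untreated and dox-treated side by side, with a line at each group's mean. H19 spans from 31.4 CPM in a dox-treated iCdh23 library to 8877 CPM in an untreated myotube-enriched library, and Grb10 is at or near 0 CPM at 0 and 24 h.

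**Figure D2:**
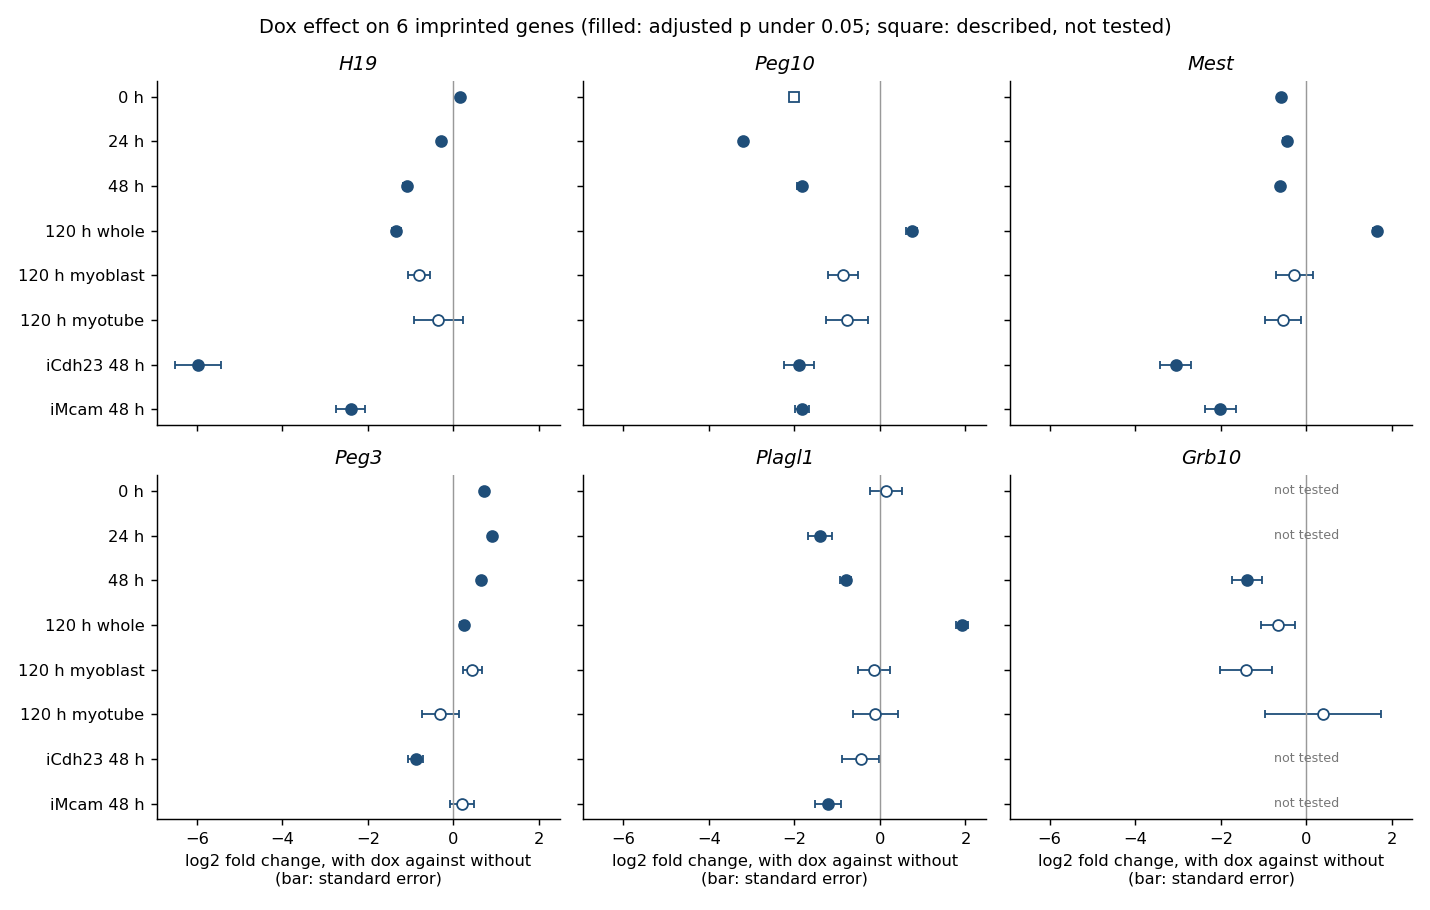
Log2 fold change with dox (dox-treated over untreated) ± SE for each member in each setting. Filled symbols passed an adjusted p under 0.05 and open symbols did not, and the square marks Peg10 at 0 h, which chose the gene and has no test. Grb10 at 48 h met the low-count filter through the untreated libraries alone. Mest, Plagl1 and Peg10 lie above 0 in whole cultures at 120 h and below it in the myoblast- and myotube-enriched fractions.

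H19, a long noncoding RNA, was the member with the highest level and the widest range. Without dox the iMyoD1 libraries held 127, 131 and 123 CPM at 0 h, 40.4, 41.6 and 47.6 CPM at 24 h, 3620, 3855 and 3917 CPM at 48 h, and 5486, 4971 and 4357 CPM in whole cultures at 120 h. With dox the values were 139, 135 and 147 CPM at 0 h, 33.7, 36.2 and 38.3 CPM at 24 h, 1729, 1654 and 2016 CPM at 48 h, and 1869, 2048 and 1987 CPM at 120 h. In these TMM-scaled values the untreated and dox-treated libraries did not overlap at any of the 4 times, with dox higher at 0 h and lower at 24, 48 and 120 h.

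H19 rose slightly with dox at 0 h (log2 fold change 0.15 ± 0.0559 SE, adjusted p = 0.0421). That call was lost without untreated replicate 1, 2 or 3 (adjusted p = 0.12, 0.0658 and 0.177) and without dox replicate 3 (0.126), while scaling to library totals gave 0.26 ± 0.055 (0.00175) and in TPM the arms were apart (103 to 110 without and 130 to 138 with dox). At 24 h the difference depended on the scaling: it was -0.29 ± 0.0745 with TMM (adjusted p = 0.00517) and -0.02 ± 0.0703 with scaling to library totals (0.797), and in TPM, which carries no TMM factor, the arms overlapped (28.8 to 31.7 without and 29.4 to 32.5 with dox). H19 fell with dox at 48 h (-1.09 ± 0.0971, 4.79e-06) and 120 h (-1.34 ± 0.103, 1.19e-05). The dox effect became more negative from 0 to 24 h (difference -0.49 ± 0.0967, adjusted p = 0.000822) and from 24 to 48 h (-0.81 ± 0.127, 0.000102), while between 48 and 120 h the difference was -0.25 (adjusted p = 0.206). Of the members tested, 2 of 4 had a dox effect that differed between 0 and 24 h (34.1% of all genes tested), 3 of 6 between 24 and 48 h (43.4%, Grb10 with its untreated 24 h libraries at 0 among the 3) and 4 of 6 between 48 and 120 h (34.1%).

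Over time H19 first fell and then rose. Between 0 and 24 h it fell by 1.52 ± 0.0705 on the log2 scale without dox and by 1.96 ± 0.0628 with dox, between 24 and 48 h it rose by 6.46 ± 0.0933 and 5.62 ± 0.113, and between 48 and 120 h it rose by 0.4 ± 0.105 without dox (adjusted p = 0.00816). With dox the last interval gave 0.14 (0.216). The late rise without dox was lost when untreated replicate 1 at 48 h was left out (0.36, adjusted p = 0.0528).

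Of the members tested over time without dox, 1 rose and 2 fell of 4 between 0 and 24 h, where 74.3% of all genes tested passed (37.3% up and 37% down). Leaving out Grb10, which was at or under the floor at 24 h in both arms and entered the test through its 48 h libraries, 4 rose and 1 fell of 5 between 24 and 48 h (76.8% of all genes, 38.4% in each direction), and between 48 and 120 h 4 rose and 1 fell of 6 (67.1%, 33% up and 34.1% down). With dox 0 rose and 2 fell of 4 (68%, 34% in each direction), then, again without Grb10, 4 rose and 0 fell of 5 (72.4%, 36.9% up and 35.5% down), and at last, also without Grb10, which met the filter through its 120 h libraries alone, 3 rose and 0 fell of 5 (73.5%, 34.9% up and 38.6% down). The median log2 change of the 5 members between 24 and 48 h was 2.55 without and 3.11 with dox (2.75 and 2.54 with Grb10 at its lower bound), against -0.02 and 0.01 for all genes, an interval in which time and batch cannot be told apart.

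Igf2, the insulin-like growth factor gene next to H19 (chr7:142650766-142666816), was not above 0.441 CPM at 0 and 24 h. At 48 h it stood at 191, 196 and 184 CPM without and 157, 136 and 135 CPM with dox, and at 120 h in whole cultures at 755, 748 and 780 against 743, 719 and 718 CPM. In both arms every library at 120 h was above every library at 48 h. Igf2 fell with dox at 48 h (-0.43 ± 0.0731, adjusted p = 0.000507, and -0.29 ± 0.0804, 0.00925 with scaling to library totals), although in TPM the arms overlapped (114 to 121 without and 97.2 to 115 with dox). At 120 h the difference was -0.08 (0.413) with TMM and 0.12 (0.202) with library totals, and in TPM the dox-treated libraries were the higher ones (422 to 428 against 402 to 407). Its dox effect moved up between 48 and 120 h (0.35, adjusted p = 0.0208).

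Myotube markers rose with H19 and Igf2 between 24 and 48 h, and were lower with dox at 48 h as both were in TMM-scaled CPM, but did not follow the fall of H19 between 0 and 24 h. The summed level of 7 of them (Myog, Mymk, Myh3, Ckm, Actc1, Tnnt3 and Ttn) was at most 4.39 CPM at 0 h, 10.5 to 11.2 CPM at 24 h, and 9355 to 10289 CPM at 48 h without dox against 4009 to 4147 CPM with it. In whole cultures at 120 h the sums were 13528 to 15322 and 10289 to 11407 CPM. In bulk RNA fewer cells of a type and less RNA per cell cannot be told apart, and the part of these markers in the H19 values was not tested. H19 was read mostly as transcript H19-202. H19-205, which starts 757 bases away and shares 2 exons with it, received 0 counts at 0 and 24 h and in iCdh23 and iMcam, 5.38 to 35.7% of the H19 count in iMyoD1 at 48 h, and 0 to 32.3% in whole cultures at 120 h.

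**Figure D3:**
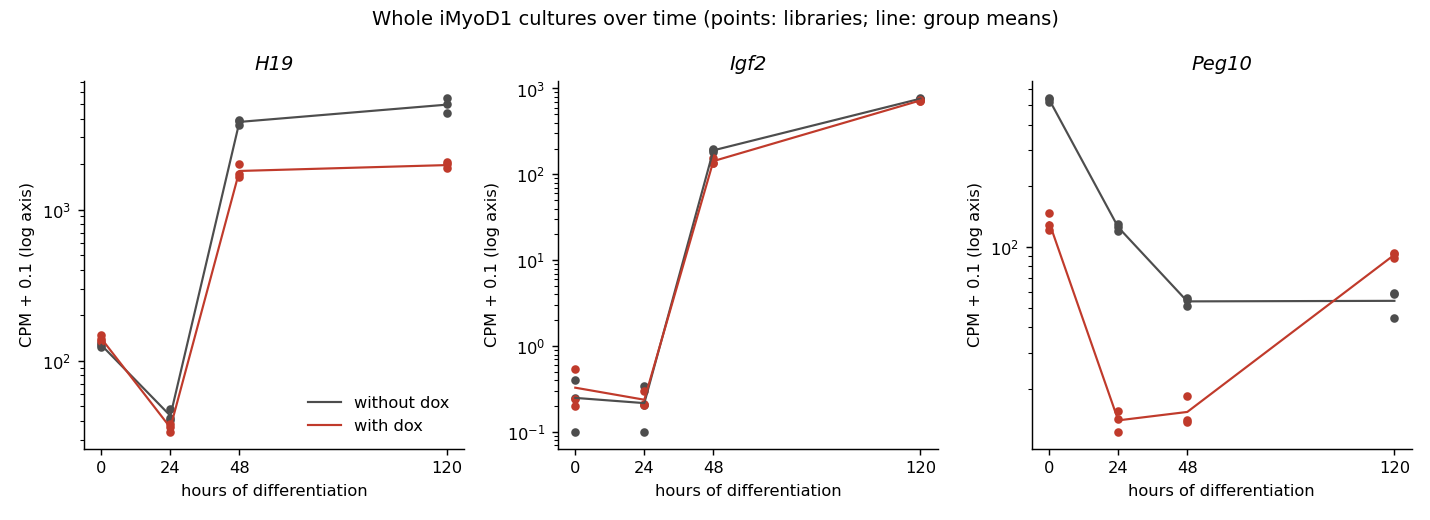
Level of H19, its neighbour Igf2, and Peg10 in iMyoD1 whole cultures at 0, 24, 48 and 120 h of differentiation, as CPM + 0.1 on a log axis, with a point for each library and a line through the means, untreated and dox-treated. H19 dips at 24 h and climbs to 4357 to 5486 CPM without dox, Igf2 appears from 48 h, and Peg10 drops from 515 to 543 CPM at 0 h to 51 to 55.7 CPM at 48 h without dox.

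Peg10 (chr6:4747306-4760517), a paternally expressed gene derived from a retrotransposon gag-pol sequence and known for its need in placenta, had its highest level in growing myoblasts. At 0 h it stood at 537, 515 and 543 CPM without dox and at 146, 128 and 121 CPM with dox, a log2 difference of -2.0 ± 0.0662 that chose the gene. At 24 h the values were 125, 129 and 120 CPM against 14, 12.1 and 15.4 CPM, and at 48 h 54.4, 55.7 and 51 CPM against 18.2, 13.9 and 13.6 CPM. At both later times the groups were again fully apart. Peg10 fell with dox at 24 h (-3.19 ± 0.0756, adjusted p = 6.11e-11) and at 48 h (-1.83 ± 0.113, 3.5e-07), and the effect was smaller at 48 h than at 24 h (difference 1.36 ± 0.139, adjusted p = 1.25e-06).

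In whole cultures at 120 h the order was the other way round. Peg10 stood at 44.7, 58.3 and 59.1 CPM without dox and at 92.3, 93.3 and 88.2 CPM with it. It rose with dox there (0.74 ± 0.119, adjusted p = 0.00092), and the change of the dox effect from 48 h was 2.57 ± 0.18 (1.73e-07). Between 48 and 120 h Peg10 rose by 2.59 ± 0.123 with dox (1.49e-09) and moved by 0.03 without dox (0.843). Between 24 and 48 h it fell by 1.21 ± 0.0608 without dox (7.05e-10), and the value with dox was 0.12 (0.432).

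The summed level of 4 proliferation genes (Mki67, Top2a, Ccnb1 and Cdk1) was 2017 to 2036 CPM at 0 h without and 1769 to 1826 CPM with dox. It was 522 to 572 and 555 to 571 CPM at 24 h, 858 to 875 and 247 to 268 CPM at 48 h, and 183 to 215 and 358 to 427 CPM in whole cultures at 120 h. The order of the arms was that of Peg10 at 48 and 120 h but not at 24 h, where the sums overlapped. At 0 h the order of the Peg10 arms was set by the choice of the gene. The part of the proliferation genes in the Peg10 values was not tested. Sgce (sarcoglycan epsilon, chr6:4674350-4747207), which starts beside Peg10 on the other strand and is imprinted with it, did not share the difference at these times: its log2 fold change with dox was -0.06 at 0 h (adjusted p = 0.54) and -0.13 at 24 h (0.186), and it rose at 48 h (0.36, 0.00252). In iCdh23, where Peg10 also fell, Sgce fell with dox from 45.1 to 46 CPM to 28.9 to 30.5 CPM (-0.61 ± 0.0753, 0.000297, and -0.28 with scaling to library totals, 0.0136), and in iMcam its change was 0.1 (0.58). The neighbours Ppp1r9a and Asb4 did not exceed 0.343 and 0.538 CPM. Of the Peg10 transcripts, Peg10-202 took 81 to 86.2% of the count at 0 h and 27.1 to 37.5% at 48 h without dox, and its start lies 100 bases from that of Peg10-203.

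Mest (mesoderm-specific transcript), a paternally expressed gene for a hydrolase-like protein, was low until 24 h and then rose. At 0 h it stood at 26.4, 27.6 and 24.6 CPM without and 16.7, 18 and 17.2 CPM with dox, and at 24 h at 23.6, 21.4 and 23 against 16.1, 16.3 and 17.8 CPM. At 48 h the levels were 686, 589 and 636 against 435, 427 and 392 CPM. In these TMM-scaled values dox-treated libraries were the lower ones at all of these times, while in TPM the arms overlapped at 24 h (13.3 to 15.7 without and 12.9 to 14.6 with dox).

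In whole cultures at 120 h the dox-treated libraries were instead the higher ones, at 495, 454 and 450 CPM against 139, 163 and 137 CPM. Mest fell with dox at 0 h (-0.59 ± 0.0779, adjusted p = 5.15e-05), 24 h (-0.46 ± 0.076, 0.000219, and -0.2 with scaling to library totals, 0.038) and 48 h (-0.62 ± 0.074, 4.12e-05) and rose at 120 h (1.66 ± 0.096, 2.26e-06). The change from 48 to 120 h in the dox effect was 2.28 ± 0.125 (3.09e-08). Between 24 and 48 h Mest rose by 4.82 ± 0.0788 without and 4.62 ± 0.077 with dox. Between 48 and 120 h it fell by 2.1 ± 0.104 without dox (6.89e-07), and the value with dox was 0.17 (0.105).

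The Mest transcripts also differed in those whole cultures. Mest-211, from the main start shown above, held most of the Mest count at 0, 24 and 48 h (94.7 to 99.7% of it). Mest-210 starts 4544 bases upstream, at the start with the CAGCTG match, and shares 11 identical exons with Mest-211. It took 79.9 to 94.9% of the count in untreated whole cultures at 120 h (2256 to 3351 estimated counts) and 95 to 98.4% in dox-treated ones (9814 to 12305 counts). The transcript was at 0 counts in all other libraries but 2, both of them fractions at 120 h with dox. Replicate 1 of the myotube-enriched fraction gave it 93.2% (860 counts) and replicate 2 of the myoblast-enriched fraction 17% (688 counts).

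Because the models share most exons, the split depends on how reads were assigned. The whole cultures at 48 and 120 h came in 1 deposited table, the fractions, iCdh23 and iMcam in another, and 0 and 24 h in the remaining one, so comparisons of whole cultures with fractions or with the other lines also cross tables. The 3′ ends of Mest and Copg2 overlap on opposite strands, and whether counting used strand is not given in the sources used here, so reads in the overlap cannot be told apart. Copg2, a coatomer subunit gene, rose with dox at 0 h (0.4, adjusted p = 0.00017) and 24 h (0.31, 0.000171), where Mest fell.

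**Figure D4:**
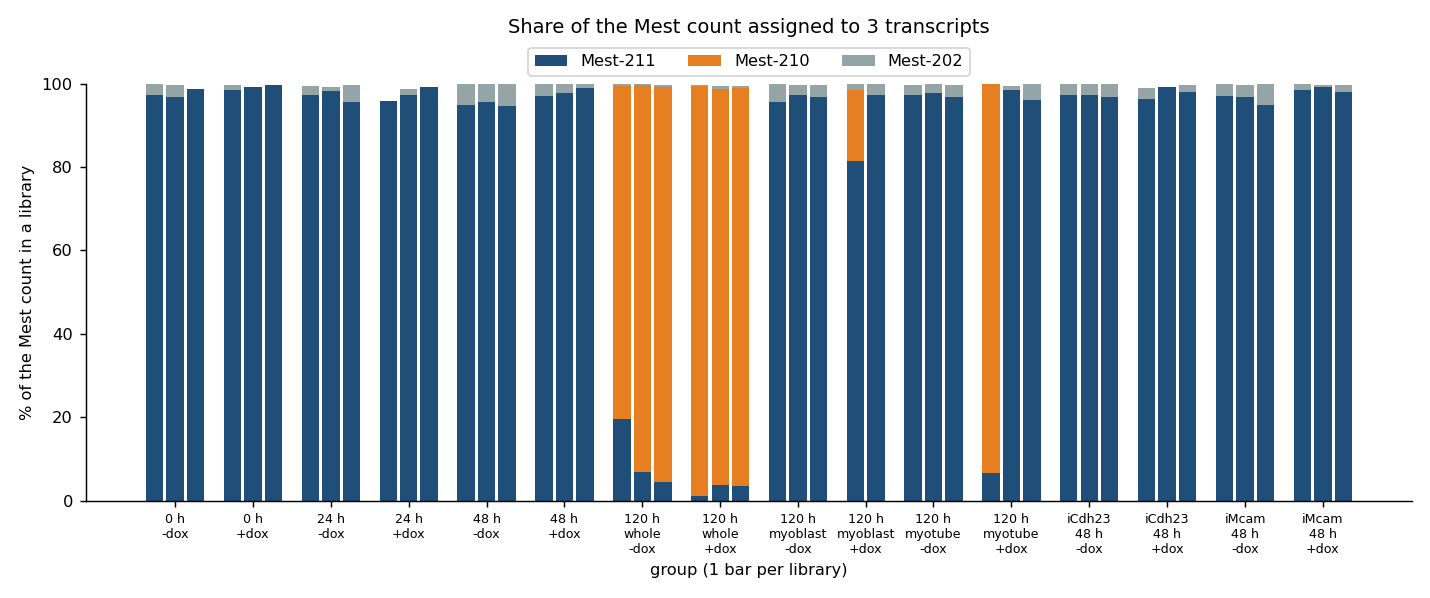
Share of the Mest estimated count, in percent, on transcripts Mest-211, Mest-210 and Mest-202, stacked on an axis from 0 to 100%, for each of the 47 libraries, ordered by group. Mest-210 fills 79.9 to 98.4% of the bars of the 6 whole cultures at 120 h and is absent from most others.

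Peg3 (chr7:6703892-6730431), a paternally expressed zinc-finger gene, was higher with dox at every time in iMyoD1 whole cultures. Without dox it stood at 98.1, 96.6 and 90.2 CPM at 0 h, 21.1, 21.3 and 20.9 CPM at 24 h, 91.4, 101 and 90.6 CPM at 48 h, and 329, 295 and 338 CPM at 120 h. With dox the values were 171, 154 and 137, then 39, 42.1 and 38.8, then 166, 147 and 135, and at last 405, 384 and 364 CPM. The groups did not overlap at any of the 4 times.

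Peg3 rose with dox at 0 h (0.71 ± 0.0725, adjusted p = 5.02e-06), 24 h (0.89 ± 0.061, 1.26e-07), 48 h (0.65 ± 0.083, 7.18e-05) and 120 h (0.25 ± 0.0868, 0.0424). The call at 120 h was lost with DESeq2 (0.0554), without a low-count filter (0.0742), and without untreated replicate 2 (0.182) or dox replicate 1, 2 or 3 (0.13, 0.107 and 0.0676). Scaling to library totals gave 0.45 ± 0.0844 at 120 h (0.00189), and in TPM the arms were apart (66.2 to 77.5 without and 95.8 to 105 with dox). The dox effect was smaller at 120 h than at 48 h (-0.4 ± 0.127, adjusted p = 0.0264), which was lost without untreated replicate 1 or 3 at 48 h (0.066 and 0.0686) or dox replicate 3 at 120 h (0.061) and with scaling to library totals (0.0616). Over time Peg3 fell between 0 and 24 h by 2.13 without and 1.94 with dox and rose in the next intervals by 2.17 and 1.88, and by 1.78 and 1.37, all past the test. Its neighbour Usp29 rose with dox at 120 h from 0.394, 0.0905 and 0.381 CPM to 1.5, 1.94 and 1.25 CPM (2.41, adjusted p = 0.00597), where the untreated libraries all lay under the filter's 0.414 CPM, and without the filter the value was 2.4 ± 0.599 (0.00315).

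Plagl1 (chr10:13060504-13131694), a paternally expressed zinc-finger transcription factor linked to growth arrest, was under 1 CPM at 0 h in both arms (0.549 to 0.85 and 0.499 to 0.921 CPM). At 24 h it stood at 2.8, 1.6 and 1.77 CPM without and 0.647, 0.925 and 0.806 CPM with dox, and at 48 h at 11.8, 12.9 and 11.1 against 7.7, 6.07 and 6.98 CPM. In whole cultures at 120 h it was at 18.2, 15.5 and 16.8 against 75.5, 55.3 and 59.9 CPM. As for Mest, dox-treated libraries were below untreated ones at 24 and 48 h and above them at 120 h.

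Plagl1 fell with dox at 24 h (-1.4 ± 0.281, adjusted p = 0.000928) and 48 h (-0.8 ± 0.126, 0.000294) and rose at 120 h (1.91 ± 0.142, 1.02e-05). The dox effect differed between 0 and 24 h (-1.58 ± 0.473, 0.0156) and between 48 and 120 h (2.71 ± 0.192, 1.96e-07). Without dox Plagl1 rose in each interval, by 1.56, 2.55 and 0.51. With dox the first interval gave 0.03, which did not pass, and the later ones rises of 3.11 and 3.21. Of its 25 transcripts in the tables, Plagl1-202 took 89.6 to 100% of the count in every library from 24 h on with at least 20 counts.

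Grb10 (chr11:11930508-12038683), an adaptor that binds the insulin receptor and is maternally expressed in most tissues, was at 0 in all untreated libraries at 0 and 24 h, and at most at 0.0484 CPM in dox-treated ones. At 48 h it stood at 0.772, 1.12 and 0.669 CPM without and 0.313, 0.303 and 0.393 CPM with dox, so the groups did not overlap. The dox-treated libraries all lay under the filter's 0.447 CPM, so the gene was tested through the untreated ones (-1.39 ± 0.358, adjusted p = 0.00701), and without the filter the value was -1.38 ± 0.467 (0.0143). Measured against a floor of 3 counts per library, it was at least 7.73-fold higher at 48 than at 24 h without dox and at least 3.89-fold higher with dox. In whole cultures at 120 h the libraries overlapped, at 1.72, 2.44 and 1.48 against 0.751, 1.32 and 1.53 CPM (-0.66, 0.21). Between 48 and 120 h Grb10 rose by 1.16 without dox (adjusted p = 0.0137), a call lost without untreated replicate 1 or 3 at 48 h (0.0555 and 0.0672) or replicate 2 at 120 h (0.056), and the value with dox was 1.86 (0.00158, and 0.00237 without the filter), where the 48 h libraries all lay under the filter's 0.401 CPM. Single fraction libraries reached 5.83 CPM without and 10.1 CPM with dox.

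The genes beside Grb10 had higher levels. Cobl, an actin nucleator gene, fell with dox at 48 h from 86.6, 82.2 and 78 CPM to 45.9, 48.6 and 44.3 CPM (-0.84, adjusted p = 2.05e-06) and in whole cultures at 120 h (-0.8, 0.000124). Ddc, dopa decarboxylase, fell at 48 h (-0.96, 0.000102) and was at least 96-fold higher at 48 than at 24 h without dox, against a floor of 3 counts per library. With dox Cobl also fell in iCdh23 (-3.15) and in iMcam (-1.88). Ddc went from 1.82 to 4.16 CPM without dox to 0 to 0.143 CPM with it (0 to 4 counts) in iCdh23, and from 1.01 to 1.81 CPM to 0.196 to 0.737 CPM in iMcam, and in iCdh23 it met the filter through the untreated libraries alone. Grb10 itself was too low to be tested in these lines (at most 0.119 CPM).

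In iCdh23 at 48 h, 4 members fell with dox. H19 went from 2383, 3369 and 4351 CPM to 35.5, 31.4 and 94.2 CPM (-5.97 ± 0.535, adjusted p = 6.38e-05), and without dox replicate 3 the value was -6.66. Mest went from 445, 445 and 252 to 35.7, 32.8 and 67.9 CPM (-3.06 ± 0.354, 0.000218). Neither gene's untreated and dox-treated libraries overlapped, and the H19 level with dox overlapped that of untreated iMyoD1 cells at 24 h. Peg10 fell from 29.9, 26.7 and 41.3 to 13.8, 7.02 and 5.49 CPM (-1.9 ± 0.347, 0.00213), and Peg3 from 276, 211 and 241 to 159, 104 and 132 CPM (-0.88 ± 0.179, 0.00355). For Peg3 scaling to library totals gave -0.55 ± 0.179 (0.025), and in TPM its arms overlapped (49.5 to 65.8 without and 31.5 to 52.9 with dox). Igf2 fell with H19, from 68.7, 113 and 214 to 5.55, 6.06 and 10.7 CPM (-4.15 ± 0.475, 0.00021).

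In iMcam, H19 fell from 1779, 2175 and 2942 CPM to 315, 300 and 656 CPM (-2.4 ± 0.336, adjusted p = 0.00125) and Mest from 393, 483 and 290 to 55.3, 76.5 and 151 CPM (-2.01 ± 0.368, 0.00367). Peg10 fell from 64.9, 62.1 and 88.3 to 22.2, 20.3 and 16.9 CPM (-1.82 ± 0.167, 0.000289) and Plagl1 from 4.29, 3.49 and 3.94 to 1.37, 1.12 and 2.39 CPM (-1.22 ± 0.302, 0.0128). In all 4 the dox-treated libraries lay below the untreated ones. Peg3 did not pass (166, 156 and 73.8 against 138, 138 and 168 CPM), and Igf2 fell (-2.08 ± 0.591, 0.0218).

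The lines differed from iMyoD1 in some of these responses at 48 h. The dox effect on H19 was less negative in iMyoD1 than in iCdh23 (difference 4.86 ± 0.499, adjusted p = 1.08e-05, where 35.8% of all genes tested differed), as was that on Mest (2.42 ± 0.367, 0.000247), and Peg3 rose in iMyoD1 and fell in iCdh23 (1.51 ± 0.207, 0.000111). Against iMcam the H19 difference was 1.31 ± 0.362 (0.0493, where 6.41% of all genes differed), and it was lost without any 1 of 10 of the 12 libraries, with adjusted p up to 0.12. For Peg10 the differences were 0.06 from iCdh23 (0.921) and -0.01 ± 0.206 from iMcam (0.987), against dox effects of -1.83, -1.9 and -1.82 in iMyoD1, iCdh23 and iMcam.

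Compared directly, untreated iCdh23 and iMcam cells differed in 0 of 5 members tested in edgeR (2 at an unadjusted p under 0.05, 1 by DESeq2), where 0.409% of all genes tested passed (1511 at an unadjusted p under 0.05, 304 by DESeq2), and Peg10, at -1.14, had an adjusted p of 0.088, against 8.15e-05 with DESeq2. With dox 2 of 5 were lower in iCdh23 (35.5%), H19 (-3.0 ± 0.465, 0.00133, and -3.69 without iCdh23 replicate 3) and Peg10 (-1.21 ± 0.299, 0.0129). The myotube marker sum fell from 4049 to 7285 CPM to 29.9 to 103 CPM in iCdh23 and from 2683 to 6855 CPM to 366 to 1232 CPM in iMcam. The proliferation sum fell from 550 to 851 CPM to 11.3 to 24.2 CPM and from 530 to 666 CPM to 47.1 to 98.7 CPM. The share of counts on retained-intron transcripts went from 1.52 to 1.64% without to 2.27 to 2.28% with dox in iCdh23 and from 1.52 to 1.66% to 2.13 to 2.16% in iMcam. Their part in the members' values was not tested.

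In the 120 h fractions no member passed with dox in the fit without a replicate block. In the myoblast-enriched fraction 0 of 6 passed in edgeR, where 4.34% of all genes tested did, while 2 had an unadjusted p under 0.05 and DESeq2 called 1 (3174 and 1580 of all genes). H19 stood at 3515, 5193 and 4782 CPM without and 2046 and 3096 CPM with dox, with no overlap (-0.8 ± 0.255, adjusted p = 0.124). DESeq2 gave it 0.0162. With the replicate number as a block, over 2 pairs, H19 (-0.97 ± 0.198, adjusted p = 0.00902) and Peg3 (0.52 ± 0.124, 0.0163) passed in the myoblast-enriched fraction. Grb10 was at -1.79 ± 0.424 in that fit, a description only, since it met the filter with 3 untreated libraries and 1 dox-treated one. The block leaves few libraries to measure the spread. Shares of all genes that passed with the block, here and between the fractions, are not given. Peg10 stood at 56.5, 25.2 and 62.7 against 25.7 and 26.9 CPM (-0.86 ± 0.358, 0.212), and it passed without untreated replicate 2 (-1.17, 0.00679).

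In the myotube-enriched fraction the replicates were far apart: H19 was at 4528, 2664 and 8877 CPM without and 3484, 6563 and 2306 CPM with dox (-0.35 ± 0.58, adjusted p = 0.998). There edgeR called 0 of 6 members (0 at an unadjusted p under 0.05, 0 by DESeq2) and 0% of all genes tested, with 79 genes at an unadjusted p under 0.05 and 2 called by DESeq2. Leaving out dox replicate 1, the library rich in retained introns, or any other library also gave 0 members. Between the fractions 0 of 6 members passed in edgeR without dox (3 at an unadjusted p under 0.05), where 0.592% of all genes did and 2251 had an unadjusted p under 0.05. Straining splits a culture into both fractions, so same-numbered fractions may share a culture, and with the replicate number as a block Peg3 (0.95 ± 0.138, adjusted p = 0.0177) and Mest (-1.33 ± 0.206, 0.0205) passed without dox. Peg3 was higher in the myotube-enriched fraction in each numbered pair (121 and 210, 82.9 and 178, 138 and 256 CPM), and Mest was lower (490 and 170, 159 and 90.4, 287 and 87.9 CPM). With dox 0 of 6 passed (1 at an unadjusted p under 0.05), and of all genes 0% passed, 183 had an unadjusted p under 0.05 and DESeq2 called 9. The dox effect did not pass as different between the fractions for any of 6 members (0 at an unadjusted p under 0.05, 0 by DESeq2), nor for any other gene (0%, with 218 genes at an unadjusted p under 0.05 and 2 called by DESeq2). Without the block Peg3 was at 0.94 between the untreated fractions (adjusted p = 0.113, and 0.00718 with DESeq2) and Mest at -1.41 (0.17, and 0.0118 with DESeq2).

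The rises of Mest, Plagl1 and Peg10 with dox in whole cultures at 120 h did not pass the test in the fractions. Mest was at 490, 159 and 287 against 195 and 316 CPM in the myoblast-enriched fraction and at 170, 90.4 and 87.9 against 59, 50.7 and 125 CPM in the myotube-enriched fraction. Plagl1 did not exceed 6.41 CPM in any fraction library, against at least 55.3 CPM in the dox-treated and at least 15.5 CPM in the untreated whole cultures. The dox effect in whole cultures exceeded that in the myoblast-enriched fraction for Mest (1.93 ± 0.466, adjusted p = 0.0289), Plagl1 (2.02 ± 0.366, 0.0086) and Peg10 (1.6 ± 0.386, 0.0291), where 7.36% of all genes tested differed. Without dox replicate 2 of the myoblast-enriched fraction none of the 3 passed (0.145, 0.0501 and 0.118), and leaving out 1 library ended the call for Mest in 7 of 11 cases and for Peg10 in 9 of 11. Against the myotube-enriched fraction 0 of 6 passed in edgeR (3 at an unadjusted p under 0.05, 2 by DESeq2), where 0.0404% of all genes did (2864 at an unadjusted p under 0.05, 824 by DESeq2), and Mest was at 2.26 (adjusted p = 0.0661). These contrasts were added after the values were seen. In the same whole cultures the retained-intron share was 1.73 to 2.06% without and 2.23 to 2.37% with dox, and the mitochondrial share 3.62 to 5.38% and 6.09 to 6.98%. The summed level of 3 smooth muscle markers, nearly all of it Acta2, was 2241 to 2702 CPM without and 1602 to 1918 CPM with dox. Myh11 and Cnn1, at most at 1.37 and 6.99 CPM in any library, went the other way, with log2 fold changes of 1.98 and 3.35. Both met the filter through the dox-treated libraries alone. The part of these values in the members' rises was not tested.

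Per length (TPM, counts scaled by transcript length and library size), the order of the members turned over with differentiation. At 0 h without dox Peg10 led with 152 TPM (147 to 157), ahead of H19 with 107 TPM (103 to 110), then Peg3 with 21.6 and Mest with 19.8 TPM. With dox H19 led at 0 h with 135 TPM, and Peg10 and Peg3 followed with 42.7 and 39.5 TPM. At 24 h without dox H19 and Peg10 overlapped (28.8 to 31.7 and 27.3 to 31.5 TPM). At 48 h without dox H19 was at 2942 TPM, Mest at 404, Peg3 at 17.7, Peg10 at 13.2, Plagl1 at 4.11 and Grb10 at 0.367 TPM. In iCdh23 with dox H19 (35.8 to 112 TPM) and Mest (33.3 to 71.6 TPM) overlapped.

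Over the 16 groups in CPM, H19 had 10 groups with means of 1800 to 5356 CPM, in which neighbours overlapped, and 6 groups below them. Dox-treated iMcam (424 CPM), 0 h with dox (140 CPM) and 0 h without (127 CPM) were each apart from the next. Peg10 was highest at 0 h without dox and lowest in iCdh23 with dox (8.79 CPM), and from untreated whole cultures at 120 h down its 11 lowest groups each overlapped the next. Mest was highest at 48 h without dox (637 CPM) and lowest at 24 h with dox (16.7 CPM), where its libraries overlapped those at 0 h with dox. In TPM its highest mean was in dox-treated whole cultures at 120 h (427 TPM), overlapping 48 h without dox (404 TPM). Peg3 and Plagl1 were both highest in dox-treated whole cultures at 120 h (385 and 63.6 CPM), with no overlap with the next group.

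By Pearson correlation of log2 group means over the 16 groups, among 12085 genes, the profiles most like that of H19 were those of Cacng1 (0.99), Tnnt1 (0.988) and Ppfia4 (0.986). Cacng1 encodes a muscle calcium channel subunit and Tnnt1 slow skeletal troponin T. Igf2 had 0.937 with H19. Those most like Peg10 were Mcph1 (0.903), Spcs3 (0.9) and Nup133 (0.892). The points share libraries and time course, so these are descriptions.

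A wider list of 65 other imprinted genes, the neighbours included and 62 of them in the tables, gives the same counts for more of the class, here over the genes that met the filter with enough libraries of each group. With dox 6 rose and 0 fell of 30 at 0 h (37.8% of all genes tested passed), 10 and 9 of 32 at 24 h (62.8%), 9 and 10 of 35 at 48 h (56.6%), and 7 and 6 of 35 in whole cultures at 120 h (45.2%). In iCdh23 7 rose and 14 fell of 34 (63.8%), and in iMcam 5 rose and 7 fell of 34 (49%). The list's median log2 fold change lay between -0.06 and 0.05 in the 8 dox comparisons. Between 24 and 48 h without dox 19 rose and 8 fell of 32 (76.8% of all genes passed, 38.4% in each direction), with a median of 0.48 against -0.02 for all genes.

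Cdkn1c, the cell cycle inhibitor p57, had one of the wide swings of that list. Its mean went from 1.37 to 753 CPM between 24 and 48 h without dox (9.09 ± 0.117, adjusted p = 9.98e-16), back to 90.5 CPM at 120 h (-3.04 ± 0.103, 1.82e-07), and from 171 to 9.8 CPM with dox in iCdh23 (-4.12 ± 0.134, 4.56e-06). Dcn, the matrix proteoglycan decorin, fell from 34.1 to 1.53 CPM with dox in iCdh23 (-4.47 ± 0.289, 1.61e-05). Herc3, a ubiquitin ligase gene, rose with dox from 13.8 to 66.8 CPM in whole cultures at 120 h (2.27 ± 0.126, 1.94e-06) and from 4.15 to 10.3 CPM at 24 h (1.29 ± 0.144, 8.87e-06). Zim1, a zinc-finger gene beside Peg3, rose between 48 and 120 h by 3.1 ± 0.281 without and 2.7 ± 0.274 with dox.

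Among 10 genes that set, keep or read imprints or bind these RNAs, Uhrf1, which brings the maintenance methyltransferase Dnmt1 to replicated DNA, fell with dox at 0 h (-0.34 ± 0.0527, adjusted p = 0.00021), 48 h (-1.17 ± 0.0699, 2.9e-07), in iCdh23 (-2.17 ± 0.207, 8.57e-05) and in iMcam (-2.02 ± 0.132, 0.000146), and rose in whole cultures at 120 h (0.83 ± 0.155, 0.00213). Dnmt1 went the same way in each of these, by -0.21, -0.52, -0.39, -0.41 and 0.45, but rose at 24 h (0.24, adjusted p = 0.00481), where Uhrf1 did not pass (-0.1, 0.181). Igf2bp2, an RNA-binding protein known to bind Igf2 mRNA, rose at 24 h (0.62 ± 0.155, 0.00417), at 48 h (1.09 ± 0.138, 6.61e-05), in iCdh23 (1.7 ± 0.115, 1.88e-05) and in iMcam (0.87 ± 0.128, 0.00147). Ctcf, the insulator protein that binds the H19 control region, rose by 0.16 at 0 h, 0.19 at 24 h and 0.52 in whole cultures at 120 h. Of the regulators tested, 3 of 8 passed at 0 h (37.8% of all genes), 5 of 7 at 24 h (62.8%, without Igf2bp3, which met the filter with all 3 untreated libraries but 1 dox-treated one), 3 of 7 at 48 h (56.6%), 3 of 7 in whole cultures at 120 h (45.2%) and 4 of 7 in each of iCdh23 (63.8%) and iMcam (49%). None passed in the fractions.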

How the data were processed

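RNA-seq of polyA RNA (TriZol extraction, NEBNext Ultra II libraries) was measured in 47 libraries. The authors deposited Salmon estimated counts per transcript against mm10 in 3 tables (109617 transcripts, of which 98.72% are in GENCODE vM21), made with the nf-core/rnaseq pipeline. The annotation and the use of strand are not given in the sources used here. Estimated counts were summed per gene and rounded, 98.77% of gene identifiers had a symbol, and no sample column was left unused. Levels are CPM (counts scaled to library size) with TMM factors over all libraries, and TPM used annotated lengths, leaving out transcripts without one.

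Each comparison was fitted on its own groups with edgeR 4.0.16 (R 4.3.3, limma 3.58.1): filterByExpr, TMM scaling, a quasi-likelihood fit, and p-values adjusted by Benjamini-Hochberg over every gene tested, called under 0.05. Differences of dox effects were interaction terms over 4 groups, of which the contrasts of whole cultures with each fraction were added after the values were seen. The scripts were tested on simulated data with the same spread for all genes and comparisons, in which only genes with ample counts were changed. Of 100 genes changed 2-fold, 99 were recovered for dox at 0 h (13559 genes, 10 false calls). For dox in the myoblast-enriched fraction 93 were recovered (14137 genes, 8 false calls), and for the difference of dox effects between 24 and 48 h 75 (14696 genes, 20 false calls). Real untreated replicates of the myoblast-enriched fraction lay further apart (chi-square per gene of 29.5 to 91.8) than replicates at 0 h (2.95 to 12.4). These recovered numbers therefore do not measure the power of the tests in the fractions.

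Alternatives were DESeq2 1.42.0, relative log expression (RLE) scaling, scaling to library totals (added after the values were seen), no low-count filter, all groups in 1 fit, a replicate block and leaving out each library. Among comparisons with 3 pairs, deviations of same-numbered replicates correlated above 0.1 in every pair for dox in iMcam only (0.134 to 0.309), from the data and not the labels, and the block changed no member call there. With 2 pairs the correlation was 0.344 for dox in the myoblast-enriched fraction. Between the untreated fractions, which the study collected from strained cultures, it was 0.083 to 0.302, and the blocked values are printed beside the others. All replicate pairs differed by more than sampling noise (chi-square per gene of 2.95 or more). The labels call replicates biological without naming separate cultures, so p-values measure the spread between these samples. Floors and counts cover counting error only.

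The members and the lists of neighbours, other imprinted genes, regulators and markers were chosen with earlier results of these data known. Named were all members and their neighbours, and of the other lists up to 4 genes a comparison with the largest changes past the test, over 2-fold and at 5 CPM or more. The regulators were named after their values were seen. Python 3.11.15, pandas 2.3.3, numpy 2.4.6 and matplotlib 3.10.9 made the tables and figures.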

Additional observations from a re-analysis of the deposited data

Results flagged for a closer look

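The results here were flagged because the dox effect on a member differed between times, lines or kinds of culture in a test of that difference itself (an interaction term in edgeR, values as log2 differences, adjusted over all genes tested). The flag marks single genes and does not set the members apart from all genes tested. Between 0 and 24 h in iMyoD1 the dox effect moved by -0.49 ± 0.0967 for H19 (adjusted p = 0.000822) and by -1.58 ± 0.473 for Plagl1 (0.0156). Between 24 and 48 h it moved by -0.81 ± 0.127 for H19 (0.000102) and by 1.36 ± 0.139 for Peg10 (1.25e-06). These last comparisons cross the batch label, so batch and time cannot be told apart. Of the members 2 of 4 tested differed in the first contrast, where 34.1% of all genes did, and 3 of 6 in the second, where 43.4% did, the third being Grb10 (adjusted p = 0.0482), whose untreated libraries at 24 h were all at 0 and which passed no longer without any 1 of 11 of the 12 libraries (up to 0.171).

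Between 48 h and the whole cultures at 120 h the dox effect moved by -0.4 ± 0.127 for Peg3 (0.0264, and 0.0616 with scaling to library totals), 2.28 ± 0.125 for Mest (3.09e-08), 2.71 ± 0.192 for Plagl1 (1.96e-07) and 2.57 ± 0.18 for Peg10 (1.73e-07), so 4 of 6 members differed where 34.1% of all genes did. For Mest, Plagl1 and Peg10 the sign of the dox effect changed, with all 3 dox-treated libraries below the 3 untreated ones at 48 h and above them at 120 h.

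Between lines at 48 h the dox effect in iMyoD1 exceeded that in iCdh23 by 4.86 ± 0.499 for H19 (1.08e-05), 1.51 ± 0.207 for Peg3 (0.000111) and 2.42 ± 0.367 for Mest (0.000247), where 35.8% of all genes tested differed. It exceeded that in iMcam by 1.31 ± 0.362 for H19 (0.0493), where 6.41% of all genes differed. This H19 call was lost without any 1 of 10 of the 12 libraries (adjusted p up to 0.12). Between the whole culture and the myoblast-enriched fraction at 120 h the dox effect differed by 1.93 ± 0.466 for Mest (0.0289), 2.02 ± 0.366 for Plagl1 (0.0086) and 1.6 ± 0.386 for Peg10 (0.0291), where 7.36% of all genes differed. Without dox replicate 2 of that fraction none of the 3 differences passed (0.145, 0.0501 and 0.118). Groups had at most 3 libraries, so none was searched for an outlying value.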

How the results depend on the processing

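Of 2021 alternatives to 147 values of single genes, 1882 kept their side of the threshold, 81 lost a call, 56 gained one, 0 called values changed direction and 2 untested values of Peg10 moved by more than 1 SD (scaling to library totals). Counts of members past the test moved by over 1.5 times as follows. With all groups in 1 fit they were 0 for dox at 0 h, 3 at 24 h, 3 at 48 h, 2 for 48 to 120 h without dox, 2 and 1 between fractions without and with dox, 0 and 1 for the changes of the dox effect from 0 to 24 and from 24 to 48 h, 0 for iMyoD1 against iMcam and 3 for whole cultures against the myotube-enriched fraction. With DESeq2 they were 1 in the myoblast-enriched fraction, 2 between fractions without dox, 1 for untreated iCdh23 against iMcam, 2 for iMyoD1 against iMcam and 2 for whole cultures against the myotube-enriched fraction. Without a low-count filter these 5 were 2, 2, 1, 2 and 2, and with RLE scaling iMyoD1 against iMcam gave 0. Scaling to library totals, chosen after seeing the data, gave 4 and 5 for the changes of the dox effect from 0 to 24 and from 24 to 48 h, and moved the upward share of all calls by over 10 percentage points also in the myoblast-enriched fraction (42 to 59.6%), from 24 to 48 h with dox (51 to 40.4%), for dox-treated iCdh23 against iMcam (46 to 63.7%) and in the changes of the dox effect from 0 to 24 h (39.1 to 73%), from 24 to 48 h (52.4 to 37.9%), between iMyoD1 and iCdh23 (60.4 to 42%) or iMcam (63.3 to 52.3%), and between whole cultures and the myoblast- (49.4 to 66.5%) or myotube-enriched fraction (100 to 81.8%). With all groups in 1 fit the calls lost outside the single dox comparisons included H19 from 48 to 120 h without dox (adjusted p = 0.393) and its changes of the dox effect (0.761 and 0.335).

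Apart from dox in iMcam and the fractions of strained cultures, same-numbered replicates shared only a number. With the replicate block the counts were 3 in the myoblast-enriched fraction (2 pairs), 2 between fractions without dox and 2 for untreated iCdh23 against iMcam. The 3 include Grb10, which was over the filter in 1 dox-treated library of that fraction. For the block and for the fit of all groups, the share of all genes that passed is not given here. With 3 pairs, every sample correlated best with its own number for untreated iCdh23 against iMcam and for dox in iMcam. The block also ended the call of Peg3 at 120 h (adjusted p = 0.129) and changed no other comparison's count by over 1.5 times. Leaving out 1 library gave 0 to 1 in the myoblast-enriched fraction, where the call was gained without untreated replicate 2, and 3 to 5 for 48 to 120 h without dox, where 3 were left without untreated replicate 1 at 48 h. It gave 0 to 2 for iMyoD1 against iMcam, 0 to 3 for whole cultures against the myoblast-enriched fraction, where 0 were left without dox replicate 2 of that fraction, and 0 to 2 against the myotube-enriched fraction. Where a fit kept 1 library of a group, that library was assumed to vary like the others. The cause was not tested. Depth limits Grb10, whose libraries held at most 201 counts, and the Dlk1-Dio3 genes, which stayed at or near a floor of 3 counts.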
